A study of Mus musculus with 38 samples.

Results

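The 41 genes described here are interferon-stimulated genes, chosen as a list of mouse symbols that were matched to Ensembl identifiers. All 41 were present among the 47729 genes of the whole marrow table and the 46679 genes of the precursor table. All 41 passed the filter on low counts in each comparison below. The samples came from female C57BL/6 mice, labelled C57BL/6J in the growth protocol, aged 6 to 7 weeks. Whole bone marrow was taken from untreated mice (2 libraries, numbered 1 and 2), mice given zoledronic acid (ZA, numbers 2 and 3), mice given granulocyte colony stimulating factor (G-CSF, numbers 1, 2 and 3) and mice given both (combined, numbers 1 and 3). ZA, a bisphosphonate that binds bone and is taken up by osteoclasts, was injected into the peritoneum at 100 µg/kg. Recombinant human G-CSF, the growth factor of the neutrophil lineage, which also mobilises marrow cells into the blood, was given by the same route at 50 µg/kg on each of 3 days, starting 2 days after ZA in the combined group. The second population was marrow cells depleted of lineage-positive cells and sorted for CD115, the receptor for M-CSF, which the labels describe as myeloid or osteoclast progenitors and which are called precursors here. In the first sequencing run (run 1) these precursors had 1 untreated, 1 ZA, 3 G-CSF and 3 combined libraries. The labels do not say whether libraries of a group came from separate mice, and the p-values therefore reflect only how far these libraries spread, which may be technical.

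Interferons are cytokines that signal through cell-surface receptors, the type I interferons through the IFNAR1 and IFNAR2 chains. The receptor activates JAK kinases, which phosphorylate STAT proteins. The complex ISGF3, of which STAT2 and IRF9 are subunits, binds a short DNA element, the interferon-stimulated response element (ISRE), in front of its target genes. Type II interferon acts mainly at another element, GAS. Many target genes encode antiviral proteins, and a low level of the programme is present in marrow cells without infection. In marrow, interferon signalling also acts on haematopoietic stem cells and restrains the formation of osteoclasts.

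The promoters of 5 members are shown, those that held the ISRE core in a short list of genes drawn up before the search. The core was searched as GAAANNGAAA on both strands, in RefSeq windows (GRCm38.p6) from 250 bases before to 50 after each gene's start. Of the 41 members, 30 had a window, and 16 of these 30 (53.3%) held the core, against 3.99% of the 27025 genes in the RefSeq table. The variant with 3 bases between the repeats, GAAANNNGAAA, was found in 6 of the 30 members and 3.17% of all genes. The GAS motif, TTCNNNGAA, was found in 6 of 30 and in 9.55% of all genes. The ISRE core and the other motifs can overlap one another. Each line gives the bases before the start, read 5′ to 3′ along the gene, with matches to the core in capitals on either strand.
Isg15: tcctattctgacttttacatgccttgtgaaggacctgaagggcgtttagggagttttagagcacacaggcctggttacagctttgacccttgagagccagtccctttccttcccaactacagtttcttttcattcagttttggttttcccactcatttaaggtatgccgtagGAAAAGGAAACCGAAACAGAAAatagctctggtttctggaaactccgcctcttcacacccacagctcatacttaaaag
Rsad2: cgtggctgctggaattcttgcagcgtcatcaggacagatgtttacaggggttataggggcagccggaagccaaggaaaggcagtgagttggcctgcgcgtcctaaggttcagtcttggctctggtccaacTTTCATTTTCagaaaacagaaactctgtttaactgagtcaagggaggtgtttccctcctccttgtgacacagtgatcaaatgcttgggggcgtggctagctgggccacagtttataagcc
Ifit1: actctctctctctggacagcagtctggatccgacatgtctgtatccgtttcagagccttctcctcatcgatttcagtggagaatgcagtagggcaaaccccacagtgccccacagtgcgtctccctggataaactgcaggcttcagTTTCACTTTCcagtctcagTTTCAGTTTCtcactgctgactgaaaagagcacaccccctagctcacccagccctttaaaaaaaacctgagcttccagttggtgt
Ifit3: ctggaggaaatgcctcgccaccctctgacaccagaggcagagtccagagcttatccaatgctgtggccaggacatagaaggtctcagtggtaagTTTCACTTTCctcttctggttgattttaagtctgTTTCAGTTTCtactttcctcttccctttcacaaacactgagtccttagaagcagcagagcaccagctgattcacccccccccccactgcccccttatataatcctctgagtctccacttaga
Stat2: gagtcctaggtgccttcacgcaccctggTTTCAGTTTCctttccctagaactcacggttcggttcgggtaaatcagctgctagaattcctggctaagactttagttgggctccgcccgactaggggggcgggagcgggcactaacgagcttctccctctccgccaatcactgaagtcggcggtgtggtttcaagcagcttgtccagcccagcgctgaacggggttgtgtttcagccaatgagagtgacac

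The windows were chr4:156200819-156201068 (minus strand) for Isg15, chr12:26456453-26456702 (minus strand) for Rsad2, chr19:34640639-34640888 (plus strand) for Ifit1, chr19:34583279-34583528 (plus strand) for Ifit3 and chr10:128270248-128270497 (plus strand) for Stat2. In Isg15, 3 overlapping matches formed a single run from 78 to 57 bases before the start. Ifit1 had 2 matches, the outer bases lying 104 and 76 before the start, and Ifit3 had 2, from 156 to 113 before it. Rsad2 had 1 match, 120 to 111 before the start. In Stat2 the match was farther out, 222 to 213 bases before the start. The other members with the core were Oas1a, Oas3, Ifih1, Ddx58, Bst2, Trim30a, Eif2ak2, Slfn5, Ifitm3, Gbp2 and Gbp3. A match is a description of these letters and not a measured binding site.

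Library totals were 6.24 M to 16.2 M counts in whole marrow and 21.0 M to 33.2 M in run 1 precursors, so that 3 counts correspond to 0.186 to 0.481 CPM (counts scaled to a common library size) in marrow and 0.0904 to 0.143 CPM in precursors, a limit that covers counting error only. Levels below are CPM after TMM scaling of library sizes by edgeR. The marrow libraries divided by G-CSF in more than the members: 50 genes were at 1 TPM (a level corrected for transcript length and library size) or more in all 5 libraries with G-CSF and at 0.1 TPM or less in all 4 without, and 11 genes did the reverse. None of the 41 members was among these 61 genes, and of the 47 and 10 that the precursor table also lists, 0 showed the same division in run 1 precursors. Cd3e encodes a CD3 chain of the T-cell receptor complex. It lay between 0 and 0.19 CPM in the 5 libraries with G-CSF and between 3.85 and 6.05 CPM in the 4 without. Cd3d lay between 23.7 and 40.9 CPM with G-CSF and between 6.57 and 9.65 CPM without. The protocols also describe nude mice on another dosing schedule, but no library used here carries that label. Differences in genetic background and the effect of G-CSF cannot be told apart across this division in whole marrow. Marker lists differed across the same division, in both directions. The summed level of 7 monocyte genes was 942 to 1246 CPM without and 417 to 572 CPM with G-CSF, that of 7 plasmacytoid dendritic genes 129 to 232 and 87.5 to 108 CPM, and that of 7 erythroid genes 134082 to 242111 and 50264 to 101573 CPM. Higher with G-CSF were the sums of 4 megakaryocyte genes (95.8 to 678 CPM without, 873 to 1274 CPM with) and of 6 T and NK genes (60.2 to 69.1 and 72.2 to 154 CPM). Within the T and NK list Cd3d went with the sum and Cd3e against it. Cd3g, outside that list, was 3.31 to 7.70 CPM without and 0.47 to 2.38 CPM with G-CSF. The sum of 5 neutrophil primary granule genes was 1560 to 2120 CPM untreated, 2389 to 2436 CPM with ZA, 3171 to 3980 CPM with G-CSF and 2322 to 2645 CPM with both. In bulk tissue, fewer cells of a type and less RNA per cell cannot be told apart. In the precursors Csf1r, which encodes CD115, was 405 to 475 CPM, against 93.8 to 168 CPM in run 1 marrow, and Cd3e was at most 0.0341 CPM. A second sequencing run is used only as an alternative, because several of its libraries resembled the other cell population: the library labelled marrow untreated 2 of run 2 correlated best with precursor untreated 2 of run 1 (r = 0.993), and the library labelled precursor untreated 2 of run 2 with marrow untreated 2 of run 1 (r = 0.979).

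In untreated marrow the members spanned a wide range of levels per transcript length. On the TPM scale, untreated library 2 had Rsad2 at 147, Ifitm3 at 140.3, Isg15 at 118, Ifi27l2a at 81.1 and Irf7 at 75.1. Rsad2 encodes viperin, which makes a chain-terminating nucleotide, Ifitm3 a membrane protein that blocks viral fusion, and Isg15 a ubiquitin-like modifier. The lowest members of that library were Mx2 at 0.40 TPM, Ifi44 at 0.97 TPM and Mx1 at 1.27 TPM. Mx1 and Mx2 encode dynamin-like GTPases, and Mx1 is known to carry a deletion in C57BL/6 mice. Mx2 is annotated as a polymorphic pseudogene. TPM values of untreated library 1 are not compared in this way, because genes of small RNAs took 39.95% of its TPM (7.97% to 15.2% in the rest of the marrow table). Several members are neighbours in the genome: Ifit1, Ifit2 and Ifit3 on chromosome 19, Oas1a, Oas2 and Oas3 as well as Oasl1 and Oasl2 on chromosome 5, Rsad2 and Cmpk2 on chromosome 12, Mx1 and Mx2 as well as Parp9, Parp14 and Dtx3l on chromosome 16, and Gbp2 and Gbp3 on chromosome 3. The members are therefore not independent of one another, and Parp9 and Dtx3l overlap on opposite strands, where reads may be shared, since the sources used here do not state whether counting used strand. Irf7 overlaps Phrf1 and Rtp4 overlaps Masp1 in the same way. Irf9 overlaps Rnf31 on the same strand, where reads could be shared whatever the strand setting.

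After G-CSF, interferon-stimulated genes fell in whole marrow: 17 of 41 were lower and none higher at an adjusted p under 0.05 (edgeR's quasi-likelihood test with Benjamini-Hochberg adjustment over 14737 genes), where 6.91% of all genes tested were lower. The median log2 change of the members was -0.90, against 0.01 over all genes, and 36 of the 41 had a negative value. All 5 libraries with G-CSF, alone or combined, lay below all 4 without it in 27 of 41 members, against 7.95% of all genes, and the reverse held for none of the members.

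Of the regulators, Irf7 is the transcription factor that amplifies type I interferon production (chr7:141262706-141266481, minus strand). It was 79.7 and 120 CPM in untreated marrow and 98.4 and 139 CPM after ZA. With G-CSF it was 31.9, 25.5 and 22.5 CPM, and in the combined group 15.7 and 18.4 CPM. The groups with G-CSF did not overlap those without it, and the log2 change was -1.90 ± 0.24 (SE, adjusted p = 0.00137). Irf9, the DNA-binding subunit of ISGF3 (chr14:55603571-55610030, plus strand), was 88.3 and 96.5 CPM untreated, 88.6 and 117 CPM with ZA, 55.4, 56.4 and 54.6 CPM with G-CSF and 32.6 and 45.1 CPM with both. Its change with G-CSF was -0.74 ± 0.18 (SE, adjusted p = 0.031). Stat2, the ISGF3 subunit whose promoter is shown above, was 37.6 and 53.8 CPM untreated and 29.0 to 35.7 CPM with G-CSF, a log2 difference of -0.51 ± 0.21 (SE) that did not pass (adjusted p = 0.14).

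Among the genes of the ISG15 system, Isg15 itself (chr4:156199424-156200818, minus strand) fell from 170 and 156 CPM in untreated marrow to 47.8, 38.4 and 16.5 CPM with G-CSF. ZA marrow had 181 and 112 CPM and combined marrow 14.8 and 15.2 CPM. The log2 change with G-CSF was -2.25 ± 0.38 (SE, adjusted p = 0.00772). Usp18, the protease that removes ISG15 and damps receptor signalling, was 24.7 and 19.3 CPM untreated and 11.9, 10.9 and 6.81 CPM with G-CSF (-1.15 ± 0.28, SE, adjusted p = 0.0308). Trim30a, a ubiquitin ligase family member, fell as well (adjusted p = 0.0168). The others of this group, Herc6, Dtx3l, Parp9 and Parp14, had log2 values between -1.06 and -0.59 and did not pass.

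The RNA-binding and RNA-cleaving effectors were lower in 6 of 9 members. The OAS enzymes sense double-stranded RNA and activate RNase L, and the IFIT proteins bind foreign RNA ends. Oas3 was 114 and 107 CPM untreated and 39.4, 29.1 and 24.9 CPM with G-CSF, with no overlap (log2 change -1.83 ± 0.23, SE, adjusted p = 0.00136). Ifit1 was 21.5 and 29.1 CPM untreated and 7.80, 10.6 and 5.48 CPM with G-CSF (-1.66 ± 0.31, SE, adjusted p = 0.00943). Oasl1, which restrains Irf7 translation, changed by -1.91, Oas1a by -1.10, Eif2ak2 (the kinase PKR) by -0.90 and Ifit2 by -0.85. Ifit3 (-1.13), Oas2 (-0.91) and Oasl2 (-0.62) had negative values that did not pass.

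The restriction effectors included the largest fall and also members with positive values. Rsad2 (chr12:26442746-26456452, minus strand) was 941 and 1222 CPM in untreated marrow and 823 and 1135 CPM after ZA. It was 235, 246 and 193 CPM with G-CSF and 206 and 177 CPM in the combined group. The 4 libraries without G-CSF all lay above the 5 with it, and the log2 change was -2.27 ± 0.19 (SE, adjusted p = 0.000172). Its genomic neighbour Cmpk2, a nucleotide kinase, changed by -1.37 (adjusted p = 0.0026), Mx1 by -2.22 (adjusted p = 0.00849) and Slfn5, a Schlafen family member, by -1.94 (adjusted p = 0.0126). By contrast, Ifitm3 was 160 and 161 CPM untreated and 206, 192 and 137 CPM with G-CSF (log2 difference 0.15 ± 0.18, SE). Bst2, which encodes tetherin, a protein that holds virus particles at the membrane, was 48.0 and 39.4 CPM untreated and 48.6, 46.2 and 34.1 CPM with G-CSF (-0.02 ± 0.20, SE). The guanylate-binding GTPases Gbp2 (0.79) and Gbp3 (0.47), which type II interferon also induces, had positive values that did not pass. For these 4 genes the test did not separate the libraries given G-CSF alone from the untreated ones.

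The sensors Ifih1 (MDA5), Ddx58 (RIG-I), Dhx58 (LGP2) and Zbp1 had log2 values of -1.24, -0.07, -0.47 and 0.16. By edgeR none of these 4 passed after adjustment and 1 had an unadjusted p under 0.05. Of the 8 other induced genes, Tor3a (-1.54) and Epsti1 (-1.23) fell, 7 had a negative value and 6 had an unadjusted p under 0.05. Ifi44 was 1.58 and 4.74 CPM untreated and 7.80, 9.50 and 3.88 CPM with G-CSF, the highest log2 value among the members at 1.13 ± 0.64 (SE), which did not pass. The untreated and G-CSF libraries overlapped.

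Members with the ISRE core in their window were lower with G-CSF in 8 of 16 cases, those with a window and no core in 6 of 14, and those with no window in 3 of 11. How many members passed depended on single libraries. Rsad2, Isg15, Irf7, Oas3, Cmpk2 and Epsti1 passed in all 9 fits that left out 1 library. The other 11 lost their call without untreated library 2 (6 called), and the count was 10 without G-CSF library 2 and 11 without G-CSF library 3. On the log2(TPM + 1) scale tested with limma, all genes shifted upward by a median of 0.52 and the members had a median of -0.06. There 2 members were called lower (Rsad2 and Isg15) and 1 higher (Gbp2), and Irf9 had a positive value (0.10, below the shift of all genes). With TPM counted over protein-coding genes only, an alternative chosen after seeing the data, the shift was 0.36 and 8 members were lower and 1, Ifitm3, higher.

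**Figure D1:**
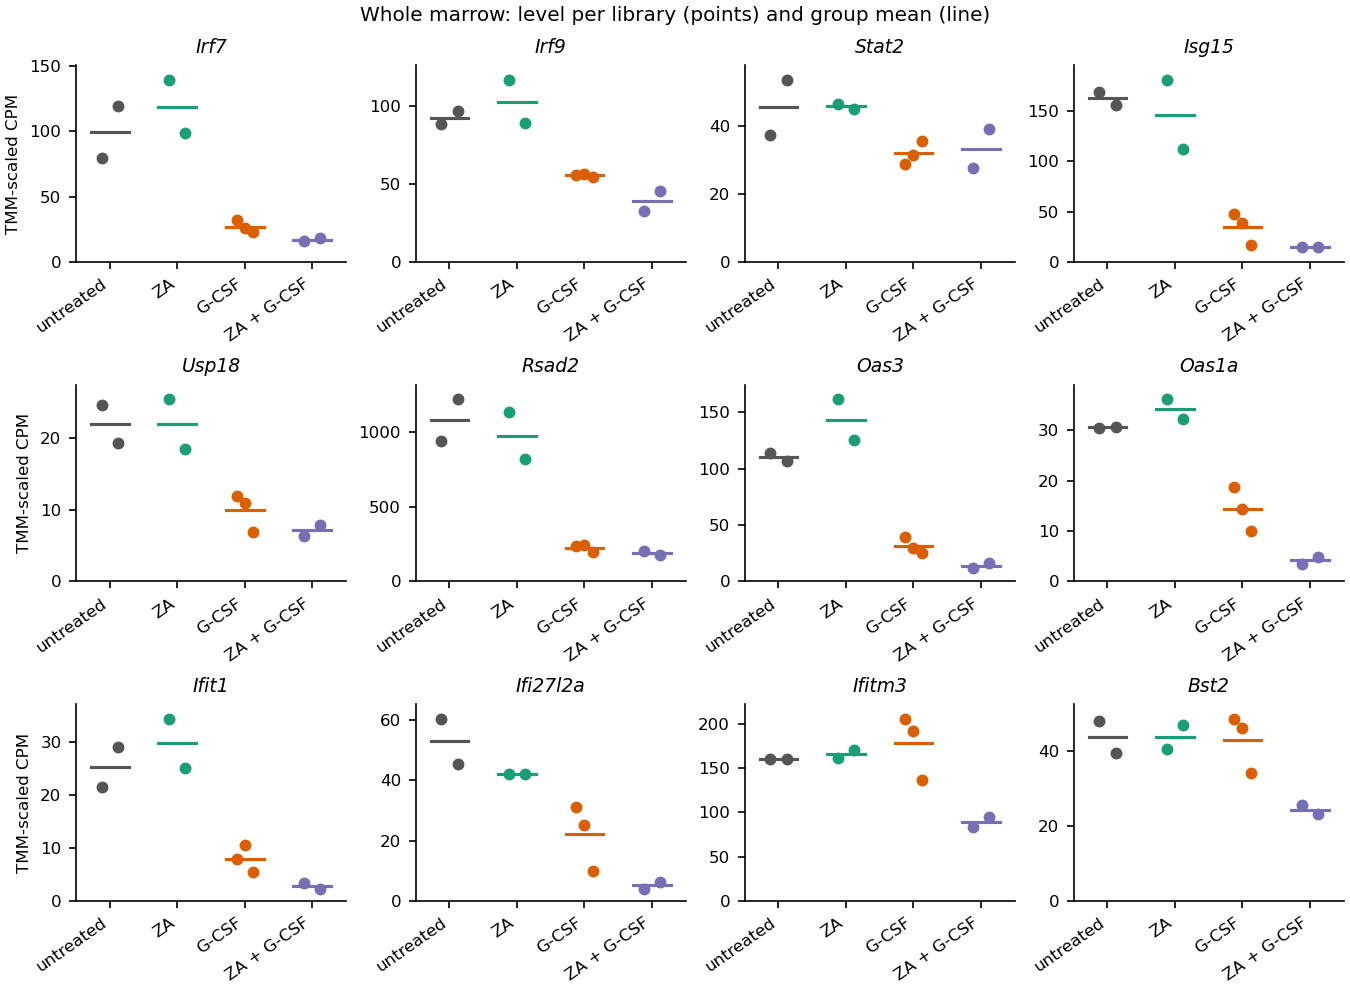
TMM-scaled CPM (vertical axes, starting at 0) of 12 interferon-stimulated genes in each whole marrow library (points) of the 4 groups, with the group mean as a line. Irf7, Isg15, Rsad2, Oas3, Oas1a and Ifit1 are lower in all 5 libraries with G-CSF than in all 4 without, whereas Ifitm3 and Bst2 are not. The 2 combined libraries are the lowest for Ifitm3 and Bst2, and also for Irf7, Irf9, Isg15, Oas3, Oas1a, Ifit1 and Ifi27l2a.

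ZA alone left no member past the threshold. Of the 41 members 0 passed by edgeR and 0 by DESeq2, and 1, Ifih1, had an unadjusted p under 0.05, where 0.0339% of all genes were called in either direction. The median log2 value was -0.05, and 19 members were positive and 22 negative. Irf7 was 0.25 ± 0.26 (SE), Isg15 -0.15 ± 0.41 and Rsad2 -0.14 ± 0.21. Ifih1, the RNA sensor MDA5, was 29.7 and 49.6 CPM untreated and 19.1 and 16.8 CPM with ZA (-1.15 ± 0.45, SE, adjusted p = 0.497). Without the filter on low counts 1 member, Ifih1, was called. With 2 libraries a group, these standard errors leave room for changes of moderate size in either direction.

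In the combined group 25 of 41 members were lower than in untreated marrow and none higher (edgeR's quasi-likelihood test), where 4.55% of all genes were lower. The median log2 change was -1.49, against -0.01 over all genes. The largest changes were in Isg15 (-3.44 ± 0.46, SE, adjusted p = 0.00391), Ifi27l2a (-3.36 ± 0.51, adjusted p = 0.00609), Ifit1 (-3.16), Ifit3 (-3.10), Oas3 (-3.01), Oasl1 (-2.96), Oas1a (-2.88) and Tor3a (-2.72). Ifi27l2a, a small hydrophobic protein of the ISG12 family, was 60.5 and 45.5 CPM untreated, 42.0 and 42.3 CPM with ZA, 31.0, 25.3 and 10.02 CPM with G-CSF and 3.95 and 6.39 CPM with both. Oas1a was 30.6 and 30.7 CPM untreated, 36.2 and 32.2 CPM with ZA, 18.8, 14.3 and 9.93 CPM with G-CSF and 3.45 and 4.91 CPM with both. For both genes the combined libraries were the lowest of the 9.

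The regulators Irf7 (-2.55, adjusted p = 0.000921) and Irf9 (-1.25, adjusted p = 0.00775) fell in the combined group, and Stat2 did not pass (-0.45). Usp18 fell by 1.63 and Rsad2 fell by 2.50 on the log2 scale. Bst2 (25.5 and 23.1 CPM) and Ifitm3 (82.97 and 94.4 CPM) were below every library of the other groups in the combined group, with log2 changes of -0.85 and -0.86 (adjusted p = 0.0472 and 0.034). These 2 reversed on the log2(TPM + 1) scale (0.34 for each), where all genes shifted by 0.79 and 10 members were lower, and with TPM over protein-coding genes (0.05 and 0.04, shift 0.65), where 13 were lower. Leaving out combined library 1 left 7 members called, Rsad2, Irf7, Ifit1, Oas1a, Oas3, Cmpk2 and Epsti1, which passed in all 9 such fits. Without untreated library 2, 15 were called.

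Combined marrow was also compared with ZA marrow, which asks for the change with G-CSF on a background of ZA. Here 21 of 41 members were lower and none higher, where 2.46% of all genes were lower, and the members' median was -1.40. Ifit1 (-3.39), Oas3 (-3.38), Oasl1 (-3.31), Isg15 (-3.29), Ifi27l2a and Oas1a (-3.03 each), Ifit3 (-2.88) and Irf7 (-2.80) led. Rsad2 (-2.35), Usp18 (-1.63), Irf9 (-1.40) and Ifitm3 (-0.90) passed, and Bst2 did not (-0.85, adjusted p = 0.063). The count was 8 without combined library 1 and 12 without ZA library 2. On the log2(TPM + 1) scale, with a shift of 0.52 over all genes, 8 members were lower. The comparisons with untreated and with ZA marrow share the combined libraries, so their values are given side by side only.

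**Figure D2:**
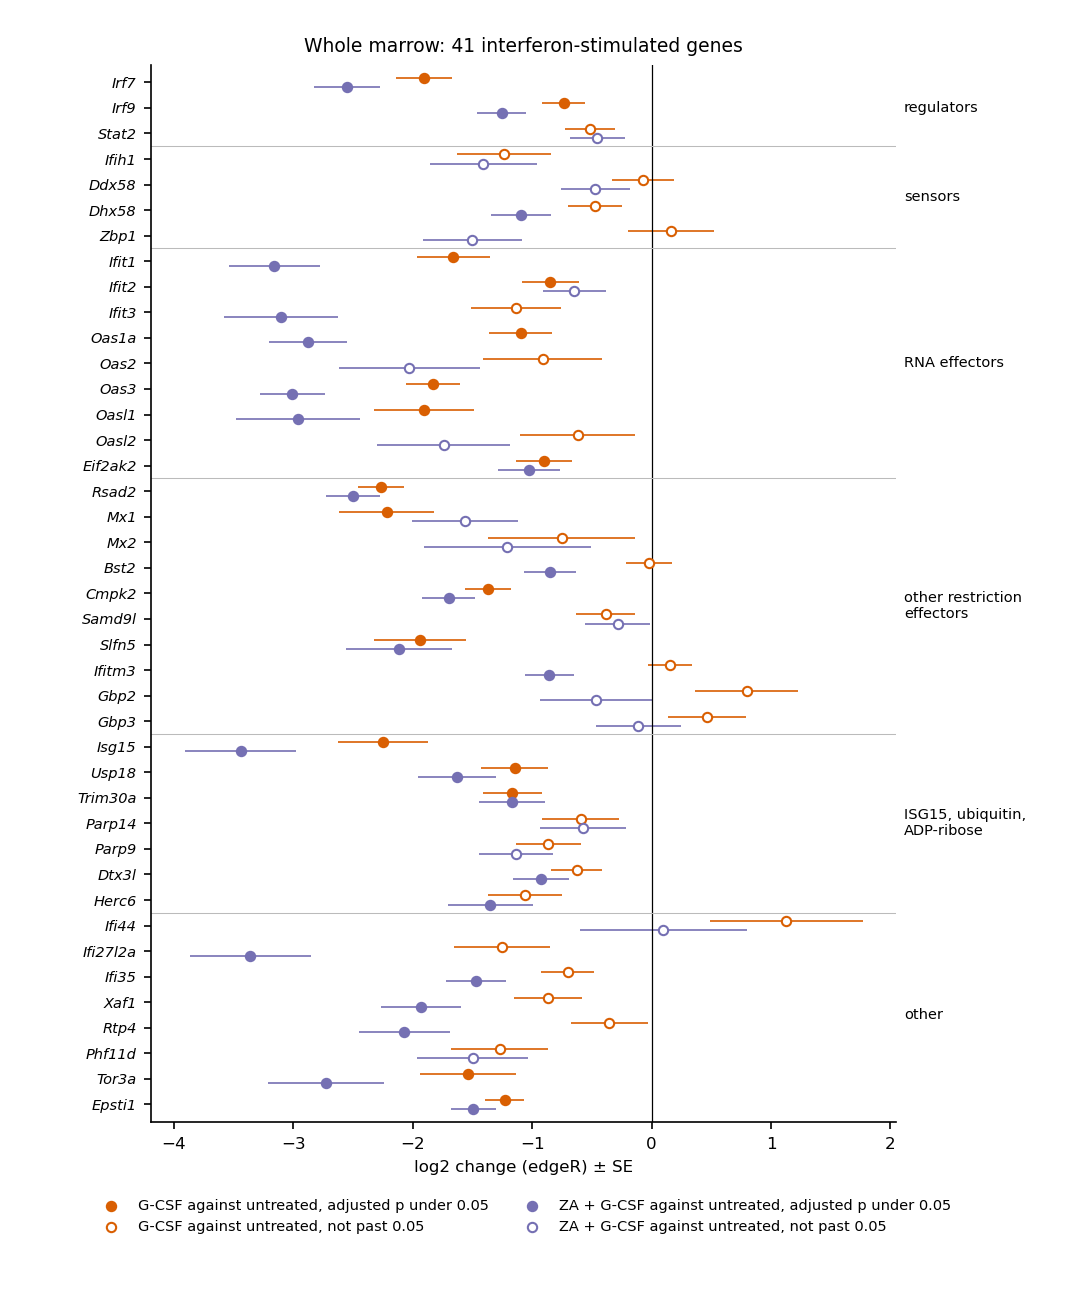
Log2 change from untreated whole marrow (horizontal axis, edgeR, bars are SE) for each of the 41 genes, grouped by role, after G-CSF (orange) and after ZA with G-CSF (purple). Filled points passed an adjusted p of 0.05, 17 with G-CSF and 25 with both agents, and all filled points lie below 0.

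Whether ZA changed the members on top of G-CSF was tested by comparing combined with G-CSF marrow. By edgeR 0 of 41 members passed and 17 had an unadjusted p under 0.05, where 0.00679% of all genes were called. DESeq2 called 9 members lower: Oas1a, Ifitm3, Ifi27l2a, Rtp4, Oas3, Zbp1, Ifit3, Ifit1 and Bst2. The share of all genes that DESeq2 called is not given here, so the 9 have no background beside them. The members' median was -0.58, against -0.01 over all genes, and 36 were negative. Both combined libraries lay below all 3 G-CSF libraries in 19 of 41 members, and in 16.8% of all genes. The largest values were Ifi27l2a (-2.10 ± 0.46, SE, adjusted p = 0.257), Ifit3 (-1.97 ± 0.44, adjusted p = 0.252), Oas1a (-1.78 ± 0.30, adjusted p = 0.141) and Rtp4 (-1.72 ± 0.35, adjusted p = 0.214), the last a receptor-transporting protein. Zbp1, a sensor of Z-form nucleic acid, was 22.7, 17.1 and 9.36 CPM with G-CSF and 4.44 and 5.93 CPM with both. Irf7 (-0.65), Isg15 (-1.19), Usp18 (-0.48), Rsad2 (-0.23) and Stat2 (0.06) did not pass. Without the filter on low counts 13 members were called lower. Without G-CSF library 3, which had lower values than the other 2 for Isg15 and Ifi27l2a, 4 were. For these fits too the share of all genes called is not given. The summed level of 8 late neutrophil genes was 23715 to 34151 CPM with G-CSF and 19157 to 19829 CPM with both. Other marker sums were also lower with both, without overlap: erythroid (67846 to 101573 against 50264 to 51999 CPM), T and NK (134 to 154 against 72.2 to 86.4 CPM), primary granule (3171 to 3980 against 2322 to 2645 CPM), progenitor (1677 to 2214 against 1353 to 1551 CPM), monocyte (451 to 572 against 417 to 439.7 CPM) and macrophage (509 to 527 against 444 to 462 CPM). The conventional dendritic sum was higher with both (33.0 to 33.8 against 37.5 to 37.7 CPM). The B lineage, plasmacytoid dendritic and megakaryocyte sums overlapped. The part of these in the members' differences was not tested.

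The interaction of ZA and G-CSF asks whether the combined level differs from the sum of both single changes on the log2 scale. By edgeR 0 of 41 members passed and 15 had an unadjusted p under 0.05, where 0.00679% of all genes were called, and DESeq2 called 4 (Oas3, Oas1a, Rtp4 and Ifitm3). Without the filter on low counts 10 were called. The 0.00679% is edgeR's share with the filter, and the shares of all genes called by DESeq2 or without the filter are not given here. The median was -0.67 for the members and -0.06 for all genes. Rtp4 (-2.10 ± 0.50, SE, adjusted p = 0.216) and Oas1a (-1.94 ± 0.42, adjusted p = 0.168) had the most negative values, and Mx1 a positive value of 1.03 ± 0.59. Irf7 was -0.90 ± 0.36, Isg15 -1.04 ± 0.58 and Rsad2 -0.09 ± 0.29.

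Other genes of the pathway were read from lists drawn up for this purpose. Of 21 interferon ligand genes 0 had enough counts to test in marrow, and their summed level was 0 to 0.674 CPM. The counts of genes called with G-CSF that follow for each list stand beside 6.91% of all genes lower with G-CSF and 727 of 14737 higher. No list was tested against that background. Among 17 receptor and proximal signalling genes 2 were lower with G-CSF and none higher. Ifnar1, a chain of the type I receptor, was 45.7 and 125 CPM untreated and 30.3, 29.9 and 38.0 CPM with G-CSF (-1.39 ± 0.36, SE, adjusted p = 0.0392). It was 44.9 and 40.4 CPM with ZA and 37.1 and 54.9 CPM with both. Libraries with and without G-CSF thus overlapped for Ifnar1, and untreated library 2 stood apart from all others. Ifngr1, a chain of the type II receptor, changed by -0.70. Ifnar2 (0.03) did not pass. Of 22 tested genes of the induction pathway 3 were lower: Tlr9 (-1.63), Irf8 (-1.40) and Irf2 (-0.84). Irf8 and Tlr9 are also high in plasmacytoid dendritic cells, in whose marker list 4 of 7 genes were lower and none higher, as were 4 of 7 monocyte genes, and their part in the members' fall was not tested.

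Among 58 tested type I response genes outside the 41 members, 18 were lower and 2 higher with G-CSF, with a median of -0.52. The lower ones included Trim12a (-4.96), Ifi213 (-3.65), Ifit1bl1 (-2.21) and Trim34a (-2.19). Ube2l6, the conjugating enzyme of ISG15, was 1468 and 1134 CPM untreated and 513, 480 and 404 CPM with G-CSF. Ifi30 was higher (0.85), and Ifi44l, a relative of Ifi44, was at 0 CPM in both untreated libraries and at 5.97, 7.99 and 7.09 CPM with G-CSF and is among the 50 genes that divide the libraries. Of 25 tested type II response genes 3 were lower and 1 higher. Gvin1 was 44.2 and 98.0 CPM untreated and 0 CPM in all 5 libraries with G-CSF. Igtp, an immunity-related GTPase, was 29.4 and 26.5 CPM untreated and 107, 98.1 and 68.6 CPM with G-CSF (log2 change 1.71, adjusted p = 0.00172). The median of the type II list was 0.39, and that of the 41 members -0.90. In combined marrow 24 of the 58 type I genes were lower than untreated and 1 higher, where 4.55% of all genes were lower.

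In run 1 precursors no member passed the test between libraries with and without G-CSF. By edgeR 0 of 41 members and 0% of all 18779 genes were called, 2 members, Mx2 and Ifih1, had an unadjusted p under 0.05, and DESeq2 called 0 members. The median log2 value was -0.09 for the members and 0.02 for all genes. Irf7 was 40.3 CPM untreated, 29.8 CPM with ZA, 36.3, 38.3 and 42.4 CPM with G-CSF and 26.9, 27.7 and 35.6 CPM with both, and its log2 difference was -0.02 ± 0.13 (SE). Isg15 was 4.84 CPM untreated, 3.95 CPM with ZA, 3.13 to 5.32 CPM with G-CSF and 3.13 to 5.17 CPM with both (-0.09 ± 0.30). Rsad2 lay between 6.34 and 11.6 CPM in all 8 libraries (-0.19 ± 0.25). The groups overlapped for all 3 genes. Irf9 (-0.10 ± 0.09), Usp18 (0.10 ± 0.26), Ifitm3 (-0.09 ± 0.09), Bst2 (-0.00286 ± 0.14) and Stat2 (0.15 ± 0.08) did not pass either. The groups without G-CSF had 1 library each, and their spread was taken from the other groups.

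No member passed between combined and G-CSF precursors. By edgeR 0 of 41 members and 0% of all genes were called, 13 members had an unadjusted p under 0.05, and DESeq2 called 0 members. The median was -0.25, against 0.01 for all genes, and 37 members were negative. All 3 combined libraries lay below all 3 G-CSF libraries in 13 members, against 6.69% of all genes: Irf7, Irf9, Stat2, Dhx58, Zbp1, Ifit1, Ifit3, Oasl2, Mx1, Mx2, Cmpk2, Ifitm3 and Epsti1. Ifitm3 was 316, 342 and 329 CPM with G-CSF and 227, 261 and 285 CPM with both (-0.35 ± 0.09, SE, adjusted p = 0.687). Zbp1 was 22.2, 24.8 and 24.1 CPM with G-CSF and 13.5, 19.97 and 14.4 CPM with both (-0.57 ± 0.17, adjusted p = 0.687). Isg15 (-0.08 ± 0.30) and Rsad2 (0.23 ± 0.25) were close to 0 or positive. Without combined library 1 the median was -0.18. The summed level of 7 erythroid genes was 94.9 to 475 CPM with G-CSF and 462 to 3513 CPM with both, and its part was not tested.

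**Figure D3:**
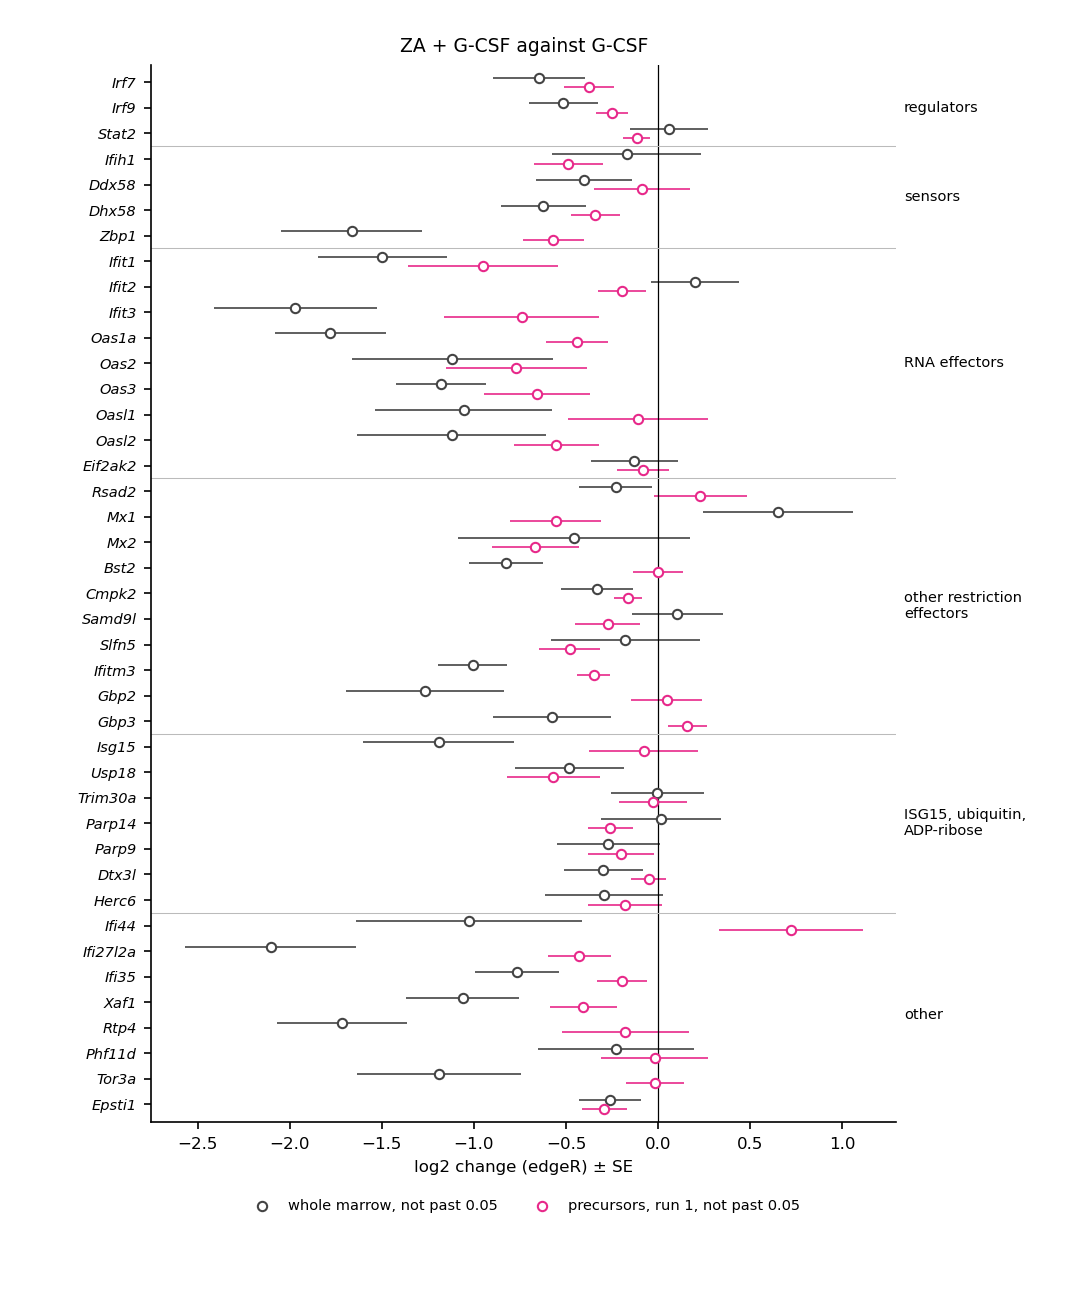
Log2 difference between ZA with G-CSF and G-CSF alone (horizontal axis, edgeR, bars are SE) for the 41 genes in whole marrow (dark grey, 2 against 3 libraries) and in run 1 precursors (pink, 3 against 3 libraries). No point passed an adjusted p of 0.05. The medians were -0.58 in marrow and -0.25 in precursors.

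The level of the programme in the sorted precursors was compared with that of whole marrow, over the run 1 libraries of untreated, G-CSF and ZA mice (5 precursor and 3 marrow libraries, with treatment in the model). Members differed in both directions: 7 were higher in precursors and 12 lower, where 20.4% of all 17208 genes were higher and 23.3% lower. The summed level of the 7 monocyte genes was 716 to 1551 CPM in these marrow libraries and 5717 to 6580 CPM in the precursors, and that of the 8 late neutrophil genes 40256 to 45037 and 338 to 684 CPM, and their part in the differences was not tested. The members called, 7 and 12 of 41, were near the background in share. Rsad2 was 286 to 1422 CPM in the 3 marrow libraries and 6.34 to 10.4 CPM in the 5 precursor libraries (-6.45 ± 0.43, SE, adjusted p = 4.44e-05). Isg15 was 50.2 to 227 CPM in marrow and 3.13 to 5.32 CPM in precursors (-4.84 ± 0.46, adjusted p = 0.000233). Ifit1 (-3.44), Rtp4 (-3.29), Oas3 (-2.33) and Ifi44 (-2.17) were lower too, followed by Ifit3, Oasl1, Ddx58, Oasl2, Herc6 and Samd9l, with values from -1.96 to -0.50.

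In the other direction, Mx1 was 1.72, 4.95 and 9.62 CPM in marrow and 36.4 to 72.3 CPM in precursors (3.52 ± 0.50, SE, adjusted p = 0.00128). Mx2 was 1.27 to 1.67 CPM and 7.27 to 11.8 CPM (2.72 ± 0.24, adjusted p = 0.000148). Gbp3 (1.98), Tor3a (1.64), Trim30a (1.20), Eif2ak2 (0.71) and Ifitm3 (0.52) were also higher. Members that share a genomic neighbourhood could differ in the size of the difference: Rsad2 was lower by 6.45 on the log2 scale, while the value of its neighbour Cmpk2 was -0.61 ± 0.29 and did not pass. On the TPM scale, which allows genes to be compared with each other, Ifitm3 led in precursors at 184 to 445 over all 8 libraries, followed by Ifi27l2a at 47.8 to 141 and Bst2 at 34.5 to 66.8, while Rsad2 was 0.80 to 2.34. Of the regulators, Irf9 (0.01), Stat2 (0.25) and Irf7 (-1.23 ± 0.53, adjusted p = 0.1) did not pass. On the log2(TPM + 1) scale all genes shifted by 0.52, and 22 members were called higher and 9 lower. The share of all genes called on that scale is not given here, so these 2 counts are not read as a result about the members. By edgeR the counts stayed between 17 and 22 called when any 1 library was left out. With the run 2 libraries, whose labels conflict with their content as described above, 0 members were called and several named members, Rsad2 (1.72), Isg15 (1.24) and Mx1 (-0.99) among them, had the opposite sign.

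**Figure D4:**
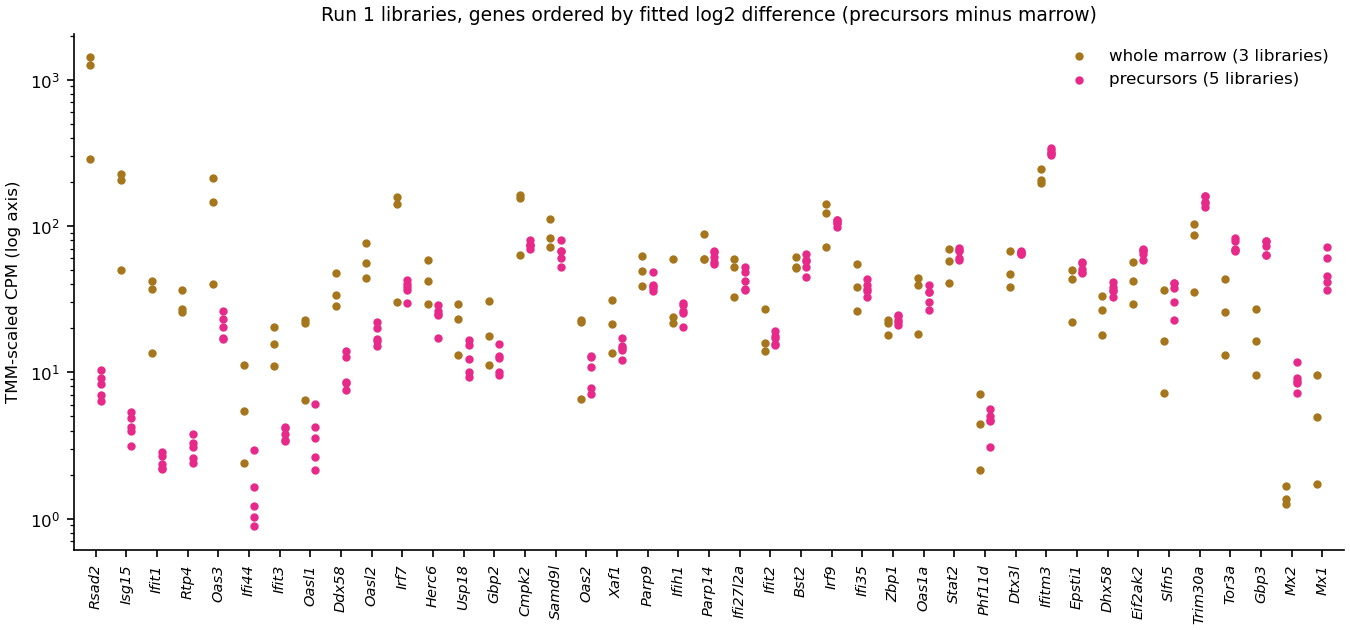
TMM-scaled CPM (log axis) of the 41 genes in the run 1 libraries of whole marrow (brown, 3 libraries) and precursors (pink, 5 libraries) from untreated, ZA and G-CSF mice, with genes ordered by their fitted difference. Rsad2 and Isg15, at the left, are far higher in marrow, and Mx1 and Mx2, at the right, are higher in precursors.

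Whether the change with G-CSF itself differed between precursors and marrow was tested directly in the 11 run 1 libraries, taking G-CSF against the mean of untreated and ZA in each population. The difference was positive, meaning a higher log2 change in precursors than in marrow, in 34 of 41 members, with a median of 0.89 against -0.04 over all genes. Of the 41 members 6 passed in this direction, where 1.96% of all genes did, and 1 in the other, where 1.03% did. The 6 were Irf7 (2.48 ± 0.26, SE, adjusted p = 0.00496), Slfn5 (2.11 ± 0.35, adjusted p = 0.0297), Cmpk2 (1.41 ± 0.14, adjusted p = 0.00354), Epsti1 (1.26 ± 0.25, adjusted p = 0.0453), Irf9 (0.91 ± 0.16, adjusted p = 0.0354) and Stat2 (0.84 ± 0.14, adjusted p = 0.0303). All 3 regulators were among them. Gbp3 went the other way (-1.37 ± 0.22, adjusted p = 0.0254), with 9.55, 16.3 and 27.0 CPM in ZA, untreated and G-CSF marrow and 63.2 to 79.5 CPM in precursors of these groups. Isg15 (2.07 ± 0.43, SE) and Rsad2 (1.92 ± 0.42, SE) had large differences that did not pass.

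This test rests on 1 marrow library per group, whose spread was taken from the precursors, and these 3 are the same libraries as number 2 of the marrow table, so it adds no independent marrow sample. Only Irf7 and Cmpk2 passed in all 10 fits that left out 1 library. The count was 4 without marrow untreated 2, 3 without precursor G-CSF 1, precursor G-CSF 2 or precursor ZA 3, and 2 without precursor G-CSF 3. On the log2(TPM + 1) scale 1 member, Ifi44, was called.

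**Figure D5:**
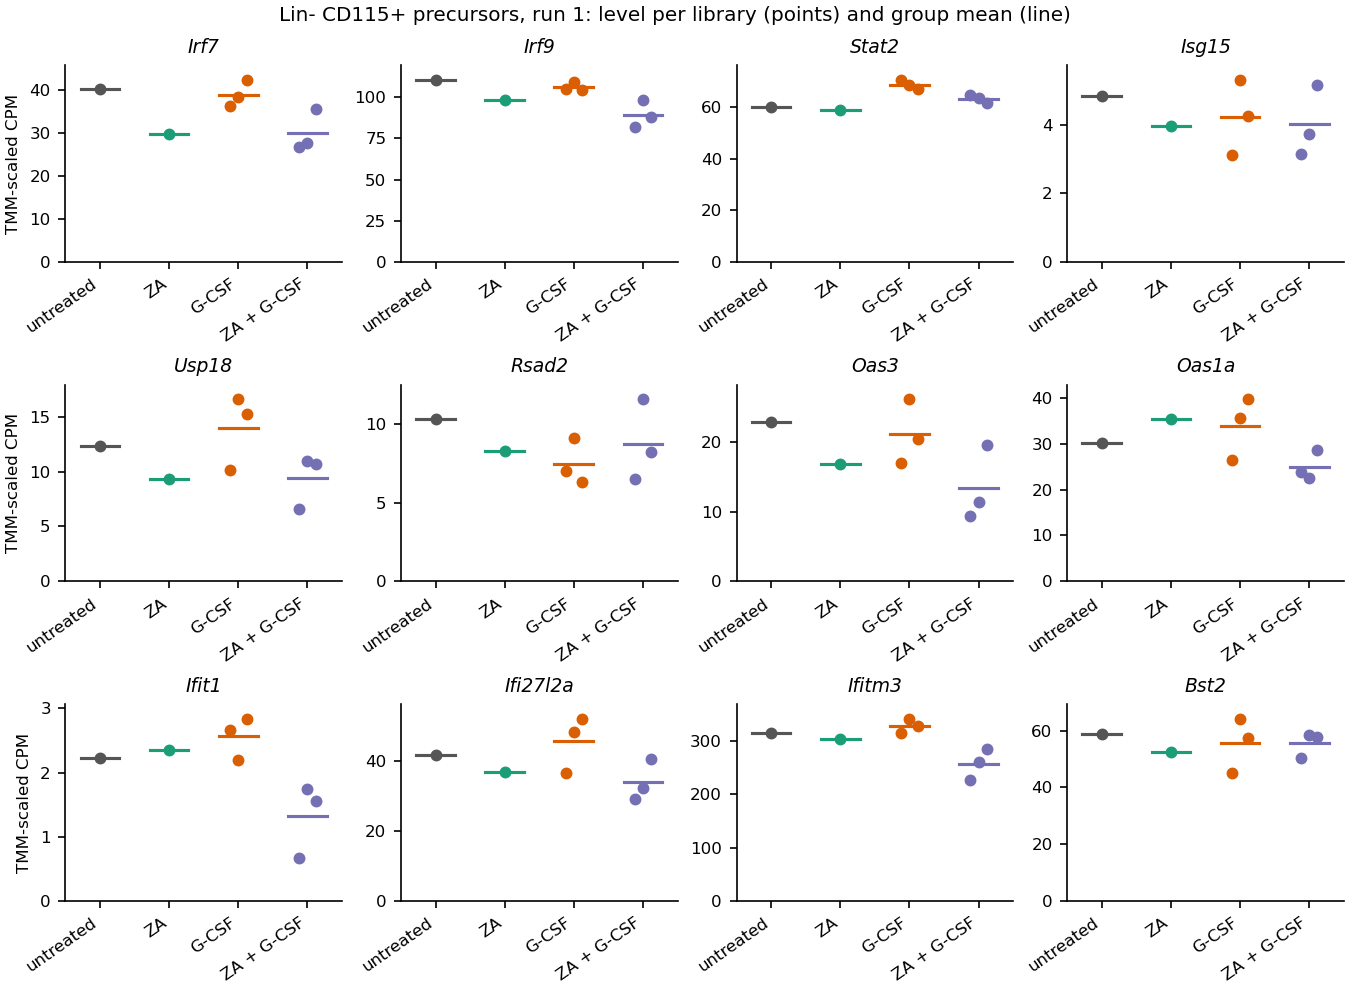
TMM-scaled CPM (vertical axes, starting at 0) of the same 12 genes in the 8 run 1 precursor libraries (points) with group means (lines). Libraries with and without G-CSF overlap for Irf7, Isg15, Rsad2 and Oas3, and the combined libraries are below the G-CSF libraries for Irf7, Irf9, Stat2, Ifit1 and Ifitm3.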

How the data were processed

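RNA from whole marrow and from sorted precursors was sequenced on a HiSeq 2000, per the labels' protocols. The authors deposited estimated counts per gene and TPM values, and the submitters' processing notes name Salmon, DESeq2 1.16.1 and mm10. The role and order of these tools and the use of strand are not given in the sources used here. After rounding, these counts entered edgeR 4.0.16 (R 4.3.3) fits (quasi-likelihood, TMM, minimum count 10, minimum total count 15, Benjamini-Hochberg threshold 0.05), and adjusted p-values in the text are from these fits over all genes tested unless another tool is named. The script was tested on simulated data. DESeq2 1.42.0, and limma 3.58.1 on log2(TPM + 1), were alternatives, as were fits without the low-count filter, with only the groups compared, with each library left out in turn, with a replicate block and, for run 1 results, with run 2 libraries. SE was taken as the size of the log2 change divided by the square root of F. The members, the pathway and marker lists, and the rule for named genes (8 members always, and up to 8 more in each comparison by size of change) were chosen with earlier results of these data known. Sequences are from RefSeq.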

Additional observations from a re-analysis of the deposited data

Results flagged for a closer look

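The change with G-CSF differed between run 1 precursors and run 1 marrow for 7 members in an edgeR test of the difference itself, in which each marrow group had 1 library, so that the spread came from the precursors and no variation between marrow libraries entered the p-values. The log2 differences were 2.48 for Irf7, 2.11 for Slfn5, 1.41 for Cmpk2, 1.26 for Epsti1, 0.907 for Irf9 and 0.844 for Stat2, all with the higher log2 change in precursors, and -1.37 for Gbp3. Irf7 and Cmpk2 were the 2 that passed in all 10 fits that left out 1 library, and with log2(TPM + 1) none of the 7 passed and Ifi44 did. The division of marrow libraries by G-CSF described above applies to this test.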

How the results depend on the processing

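With G-CSF against untreated marrow, the count of called members was 3 with log2(TPM + 1) and 9 with TPM over protein-coding genes, an alternative chosen after seeing the data. For combined against untreated it was 10 and 13, and for combined against ZA 8 with log2(TPM + 1). DESeq2 gave 9 for combined against G-CSF, 4 for the interaction and 14 for the difference between populations. Without the low-count filter the counts were 1 for ZA, 13 for combined against G-CSF and 10 for the interaction. For precursors against marrow log2(TPM + 1) gave 31 and run 2 libraries 0, and for the difference between populations 1 and 0. Leaving out 1 library gave 6 to 16 for G-CSF, 7 to 27 for combined against untreated, 0 to 4 for combined against G-CSF, 8 to 23 for combined against ZA, 17 to 22 for precursors against marrow and 2 to 9 for the difference, and 0 to 0 for ZA, the interaction and both precursor comparisons. The difference could not be fitted without marrow G-CSF 2. The share of all genes called under each of these settings is not given here, so the counts have no background beside them. The cause of these changes in the counts was not tested.

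With the replicate number as a block, 12 members were called for G-CSF, 13 for combined against untreated and 17 for combined against ZA. Deviations of same-numbered libraries from their group means were at most weakly correlated (r from -0.0589 to 0.142 over 9 marrow pairs and from -0.051 to -0.0339 over 3 precursor pairs). In groups of 2 libraries the deviations mirror each other. Whether same-numbered samples shared more than a number therefore cannot be told from these values.

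Of 478 alternative values of 58 named results, 380 kept their direction and side of the threshold, 73 lost their call and 25 reversed. The reversals came with run 2 libraries, several of which match the other population than their label, or with TPM scales that shifted all genes up by 0.52 to 0.79, and these tallies are no measure of stability. Irf9 with G-CSF was 0.10 with log2(TPM + 1). Combined against untreated, Bst2 was 0.34 and Ifitm3 0.34 with log2(TPM + 1), and 0.053 and 0.041 with TPM over protein-coding genes. With run 2 libraries, precursors against marrow were 1.72 for Rsad2, 1.24 for Isg15, 1.06 for Ifit1, 0.84 for Rtp4, 0.55 for Ifit3, 0.51 for Oas3, 0.33 for Oasl1, -0.17 for Ifitm3, -0.99 for Mx1, -0.57 for Mx2, -0.35 for Gbp3, -0.31 for Tor3a, -0.27 for Trim30a and -0.21 for Eif2ak2. The difference was -1.08 for Irf7, -0.21 for Irf9, -0.28 for Stat2, -0.45 for Cmpk2, -0.20 for Epsti1 and 0.11 for Gbp3.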
